A study of Arabidopsis thaliana with 3 samples.

Results

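The transcripts described here had low to middling signals, up to percentile 71.4 of the array, in Arabidopsis thaliana Col-0 plants flooded with water. They were at least 2.5 times as bright in plants flooded with the synthetic auxin 2,4-dichlorophenoxyacetic acid (2,4-D). They were chosen from the measured values. A probe set, the group of probes that reports on a transcript, was a member when its signal on the water array was 14 or more and below 100 and when both 2,4-D arrays read at least 2.5 times that signal. Control probe sets, genes of the plastid and mitochondrion, and symbols of 15 named families (GH3, IAA, LBD, HAT, PUB, LEA, COR, EXP, XTH, TET, UGT, IQD, WRKY, bZIP and BGLU) were left out. Of the 22746 probe sets other than controls, 157 met the signal criteria, 8 of these were left out by name, and 149 remained as members. Of these, 68 had 1 gene in the naming table, 3 had several and 78 were not listed there, so an unlisted member could still belong to a family that was meant to be left out. Of the 68 single genes 61 were listed by locus tag alone. The roles given below are background knowledge of those loci and were not taken from the deposited values.

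All 3 samples were whole wild-type plants of stock N1092 at growth stage 1.04, grown for 14 days on 1% phytagel with MS medium and 1.5% sucrose in a 16 hour photoperiod, with 48 hours at 4 °C and 48 hours of darkness in their growth record. The control plants received 1 mL of distilled water and the treated plants 1 mL of 1 mM 2,4-D in water adjusted to a pH of 7.0, each for 1 hour. A pH for the control water is not given in the labels. Total RNA was hybridised to Affymetrix ATH1 arrays, 1 for water and 2 for 2,4-D, and separate plants or plates for the 2 treated samples are not stated in the labels.

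Auxin binds receptors of the TIR1 and AFB family, which mark the Aux/IAA repressors for degradation and release transcription factors that switch on early auxin genes. 2,4-D acts through the same receptors, and at herbicidal levels it also brings on ethylene and abscisic acid synthesis in broad-leaved plants. The rule leaves out GH3, IAA, LBD and HAT symbols, which include early auxin genes. The 8 probe sets it left out here were of the plastid or carried PUB, UGT, COR, WRKY or EXP symbols. Members that were unlisted or listed by locus tag alone could not be left out by symbol, so early auxin genes may remain among them.

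The arrays had median MAS5 signals of 41.9 for water, 38.7 for 2,4-D replicate 1 and 38.5 for 2,4-D replicate 2. Bacterial transcripts that no plant makes are represented by 27 dim control probe sets, of which the brightest read 13.9, 10.7 and 8.38 on the same arrays, so the lower bound of 14 lay just above that level. Spiked bioB control RNA was dimmer on the treated arrays, with geometric mean signals of 228, 102 and 79.8, and so was bioC (621, 303 and 215), while bioD (1061, 871.5 and 735.5) and cre (4396, 3601 and 4122), both brighter, differed less. The part of this array difference in the results was not tested. The plants were whole, and markers of shoot and root were read. The 4 named photosynthesis genes of a list of 7 summed to 20161 with water and to 13426 and 20579 with 2,4-D. The 3 named root genes of a list of 5 summed to 2321, 3008 and 2458, nearly all of it from PYK10 (2240, 2985 and 2439). The other root genes, EXPA18 and EXPA7, which mark root hairs, were lower on both treated arrays. EXPA18 read 43.8 with water and 7.98 and 3.55 with 2,4-D, below the brightest dim control of those arrays. The pollen gene AGL66 stayed below the brightest dim control, at 8.66, 7.14 and 6.08. In such bulk samples a change in RNA per cell and a change in the share of cells of a type cannot be told apart.

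Members spread over the water range much as all probe sets of that range did. Their water signal ran from 14 to 99.2, within bounds set by the rule, with a median of 40.9 and quartiles of 23.1 and 65.3. All 10201 probe sets of the range had a median of 40.4 and quartiles of 24.3 and 63.0. Of the 149 members, 78 lay below the median of the water array, as did the median of the range itself. With 2,4-D the median signal of the members was 153 on replicate 1 and 155 on replicate 2. The median member moved from percentile 49.4 of the water array to percentiles 80.5 and 80.7 of the treated arrays. Of the 149, 95 exceeded 100 on both treated arrays and 7 exceeded 500. The geometric mean of the 2 ratios to water, called the mean ratio below, had a median of 3.58 and ran from 2.59 to 19.5. It was at least 4 for 58 members, at least 5 for 31 and at least 10 for 7. These values were used to choose the members and are a description without a test.

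**Figure D1:**
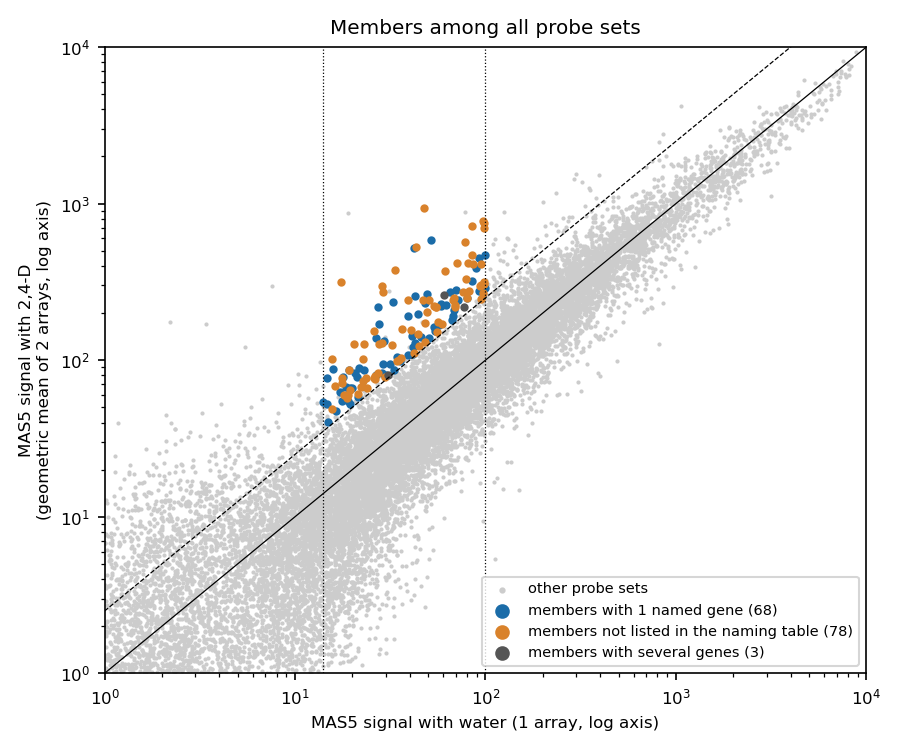
Each point is a probe set, with its MAS5 signal on the water array (x, log axis) against the geometric mean of its signals on the 2 arrays of 2,4-D (y, log axis). The solid line marks equal signals, the dashed line a ratio of 2.5 and the dotted lines water signals of 14 and 100, and probe sets below a signal of 1 are not drawn. The 68 named and the 78 unlisted members spread over the same part of the plot, above the dashed line and between the dotted lines.

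Over the whole range rises of this size were less common than falls, and the difference came from its dimmer part. Of the 10201 probe sets with a water signal of 14 to below 100, 1.54% were at least 2.5-fold higher on both treated arrays and 4.68% at least 2.5-fold lower. The share of lower probe sets fell with brightness, from 11.3% at water signals of 14 to 20 to 5.12% at 20 to 50 and 1.46% at 50 to 100. Members made up 1.71%, 1.42% and 1.41% of the probe sets in the same steps, with median mean ratios of 3.55, 3.44 and 3.62. At 50 to 100 the share of members was thus close to that of falls. A 2.5-fold fall from a water signal below 20 ends under the brightest dim control of both treated arrays (10.7 and 8.38). Such falls cannot be told from loss to background. Both ratios of a member share the single water array, so the treated arrays are not independent witnesses of a rise, and a water signal that read low by error would favour membership. In the limma fit over 13648 tested probe sets 10.8% were called higher. All 149 members were called higher as well, but the call rests on the values that chose them and nothing is read from it.

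Among the named members AT1G20070, for a protein of unknown function, had the largest mean ratio, with signals of 42.1 with water and 478 and 566 with 2,4-D. It went from percentile 50.1 of the water array to 94.1 and 95.1. AT1G48100 is the gene of a polygalacturonase, an enzyme that cleaves wall pectin, and had 51.9 with water and 562 and 616 with 2,4-D. These were the only named members with a mean ratio of at least 10, at 12.3 and 11.3. AT2G41190, of the amino acid transporter family, had 27.4 with water and 162 and 293 with 2,4-D. Its treated signals differ 1.81-fold from each other, yet the lower of them is 5.93 times the water signal. Below these came AT2G16005, AT2G24600, OCT5 and ZCF37, which are described with their groups. In all, 22 of the 68 named members had a mean ratio of at least 4.

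**Figure D2:**
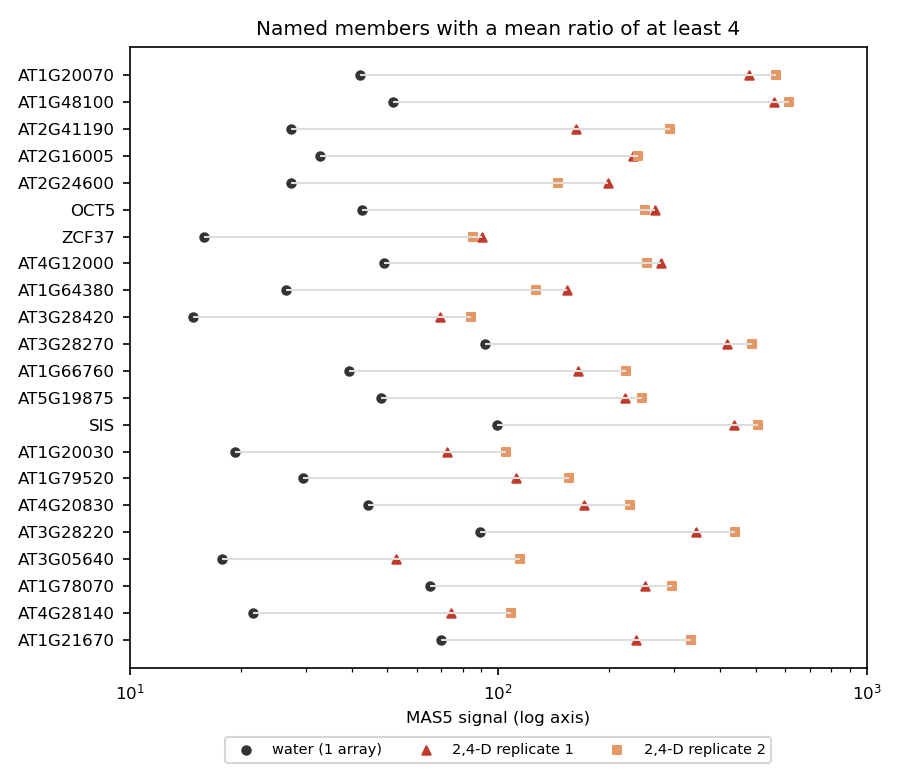
MAS5 signal (log axis) of the 22 named members with a mean ratio of at least 4, with the water array as a circle and the 2,4-D replicates as a triangle and a square. In every row both treated arrays lie to the right of water, and the gap between the treated arrays is widest for AT3G05640 (52.7 and 114) and AT2G41190 (162 and 293).

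The 51 named members with a role that could be stated were sorted, after their names were seen, into 8 groups, and the other 17 were kept apart. The median mean ratio was highest in the transport group (4.46 over 7 genes) and in the stress and defence proteins (4.37 over 7), and lowest in protein turnover (2.99 over 5). The ranges of the groups overlap, and the groups were drawn up by hand, so no difference between them was tested.

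**Figure D3:**
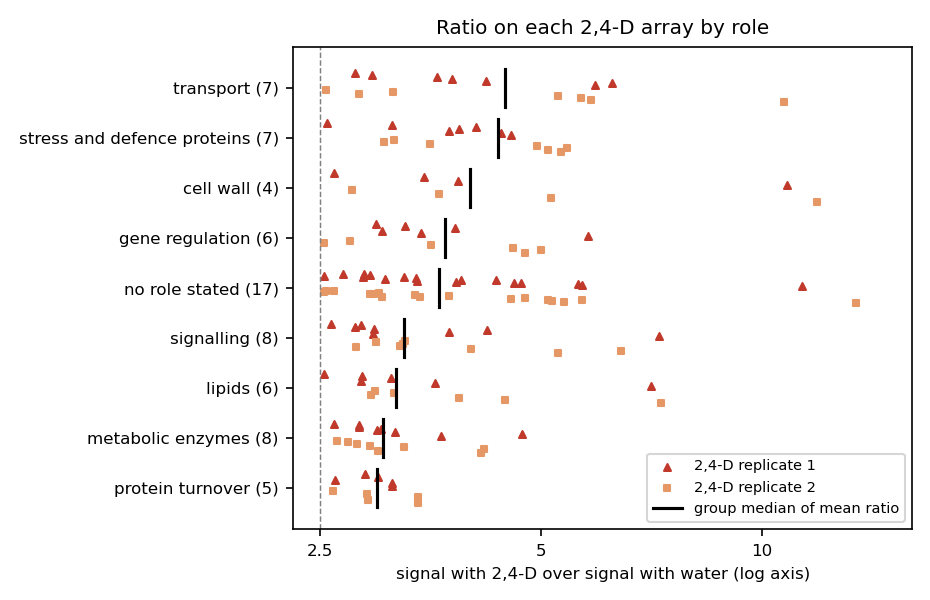
Ratio of the signal with 2,4-D to the signal with water (log axis) for the 68 named members, by role, with the number of genes in brackets. Triangles are 2,4-D replicate 1, squares are replicate 2, the black bar is the median of the mean ratio in the group and the dashed line is the threshold of 2.5. Group medians run from 2.99 for protein turnover to 4.46 for transport, and single genes of every group reach down towards the threshold.

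Among the regulators of gene expression, 3 of 6 encode AP2/ERF transcription factors, and all 3 belong to subgroup A-6 of that family, a group related to the dehydration-responsive DREB factors. AT1G64380 had signals of 26.6 with water and 154 and 126 with 2,4-D. AT4G28140 had 21.6 with water and 74.2 and 108 with 2,4-D. AT2G22200 had 23.1 with water and 70.3 and 106 with 2,4-D. All were dim with water and 3.73 to 5.25 times brighter on average after treatment. Between the treated arrays AT2G22200 differed 1.5-fold and AT4G28140 1.46-fold. Of the subgroup's 10 genes 6 had a named probe set, 3 of them not members. AT4G39780 had 56.1 with water and 60.9 and 43.8 with 2,4-D and did not pass (log2 change -0.12 ± 0.32, SE, limma adjusted p = 0.836). AT1G36060 was lower, at 32.7 against 14.2 and 5.5, where that array's own brightest dim control read 8.38, and was too dim on average to be tested. AT5G65130 read 4.18 with water, below the brightest dim control, and 11.2 and 15.04 with 2,4-D, above the 10.7 and 8.38 of those arrays. Its ratio to water is therefore uncertain, and it was too dim on average to be tested. The other regulators were lower in the range. AT5G28040, a storekeeper-related DNA-binding protein, had 21.2 with water and 80.9 and 74.95 with 2,4-D. AT4G30825, a pentatricopeptide repeat protein of the kind that acts on organelle RNA, had 19.1 against 56.9 and 52.4, and the RNA-binding protein gene AT4G19610 had 16.5 against 53.8 and 41.6.

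The signalling group held 8 genes, from receptors at the cell surface to phosphatases. AT2G24600, which encodes an ankyrin repeat protein, led it with 27.5 for water and 199 and 145 for 2,4-D. AT3G05640, for a protein phosphatase of type 2C, had 17.8 with water and 52.7 and 114 with 2,4-D, which is the widest spread between the treated arrays of any named member (2.17-fold). Phosphatases of this type switch off stress kinases, and those of clade E, to which AT3G05640 belongs, restrain growth when water is short. Both of its named relatives in the clade had other values: AT3G16800 was higher by 0.68 ± 0.23 on the log2 scale (limma adjusted p = 0.0187), and AT5G27930 had 47.0 with water and 16.8 and 29.8 with 2,4-D and did not pass (adjusted p = 0.0631, limma). A second phosphatase gene of type 2C, AT3G62260, read 41.6 on the water array and 107 and 136 on the treated arrays.

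The other 5 genes of the group encode receptors, kinases and a repeat protein, with mean ratios of 2.91 to 3.88. AT5G25930, a leucine-rich repeat receptor kinase, had 41.2 with water and 174 and 116 with 2,4-D. AT1G61360, an S-locus lectin receptor kinase, had 17.8 against 52.5 and 57.0, and the leucine-rich repeat protein gene AT5G12940 had 42.6 against 119 and 138. PTI1-4 (AT2G47060) encodes a cytoplasmic kinase named for its likeness to a tomato partner of the Pto resistance kinase. It was the brightest member with water, at 99.2, and read 282 and 296 with 2,4-D. AT5G58120, for an intracellular immune receptor of the TIR-NBS-LRR type, was the dimmest, at 14 with water against 52.5 and 56.4. Its water signal lies at the level of the brightest dim control, so the size of its ratio is uncertain.

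Protein turnover was represented by 5 genes with a narrow range of mean ratios, 2.74 to 3.26. AT1G20823 encodes a ubiquitin ligase of the RING-H2 type and had 56.7 with water and 170 and 164 with 2,4-D. AT5G51740, a metalloprotease of mitochondria, had 28.9 against 90.6 and 98.5. AT5G01960, of the RING/U-box class, had 34.6 against 90.7 and 118. The kelch repeat genes AT3G63220 and AT5G49000 had mean ratios of 3.02 and 2.74. All 5 were tight between the treated arrays, which differ by at most 1.3-fold.

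Carriers formed the group with the highest median. OCT5 (AT1G79410), an organic cation/carnitine transporter, had 42.7 with water and 267 and 250 with 2,4-D. AT1G66760, an efflux carrier of the MATE family, had 39.3 with water and 165 and 223 with 2,4-D. AT1G79520, a cation efflux carrier, had 29.5 with water and 112 and 155 with 2,4-D. These and AT2G41190 stood above the other 3 genes of the group in mean ratio. AT5G38030, also a MATE carrier, had 30.0 against 83.6 and 76.3. AT3G45680, of the nitrate and peptide transporter family, had 18.7 against 67.6 and 52.8, and the sugar transporter-like gene AT5G17010 had 53.8 against 158 and 169. MATE carriers move organic acids, flavonoids and foreign compounds out of the cytoplasm, often into the vacuole. A list of 47 MATE genes, drawn up after the members were known, had 33 named probe sets for 32 genes, and 31 of these probe sets were not members. Of the 15 that were tested, 5 were called higher and 0 lower by limma, against 10.8% and 10.5% of all tested probe sets, and the median mean ratio of the 31 was 0.922. The called genes were AT1G11670 (log2 change 1.11 ± 0.24), AT1G15180 (1.02 ± 0.24), AT1G61890 (0.91 ± 0.20), AT5G44050 (0.85 ± 0.32) and AT5G65380 (0.63 ± 0.20). The filter let in dim genes that were higher with 2,4-D more easily than dim genes that were lower.

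The 4 cell wall genes differed widely in size. Beside the polygalacturonase gene AT1G48100 stood AT4G20830, which encodes a berberine bridge enzyme-like oxidase that acts on pectin fragments. It had 44.4 with water and 171 and 229 with 2,4-D. AT1G05170, of a galactosyltransferase family, had 14.7 against 51.0 and 53.5, from a water signal just above the brightest dim control. AT5G66390, known as peroxidase 72 and tied to lignin formation, had 19.4 against 50.8 and 53.7 and was the smallest of the group.

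Genes for lipid-binding and lipid-making proteins came next. AT2G16005, of the MD-2-related lipid recognition family, had 32.8 with water and 232 and 239 with 2,4-D, and its treated arrays differed 1.03-fold. A second gene of the family, AT5G23830, had 34.4 with water and 108 and 101 with 2,4-D. Its immediate neighbour on the chromosome, AT5G23840, of the same family, was below the brightest dim control with water (4.78) and above it with 2,4-D (21.8 and 22.4), at least 1.59-fold higher. Whether these probe sets share signal was not tested. The brighter genes of that family did not pass: AT3G11780 had a log2 change of -0.40 ± 0.19 (limma adjusted p = 0.134) and AT3G44100 one of 0.17 ± 0.20 (limma adjusted p = 0.599). AT5G06480 had 53.8 with water and 33.7 and 20.8 with 2,4-D and did not pass either (adjusted p = 0.0502, limma).

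HOS3-1 (AT4G36830), a homologue of the ELO enzymes that lengthen fatty acids in yeast, had 20.6 with water and 73.8 and 91.8 with 2,4-D. Its named relatives AT3G06460 and AT3G06470 had mean ratios of 0.591 and 0.857 and did not pass. AT1G67360, for a protein that coats lipid droplets, had 92.8 with water and 265 and 293 with 2,4-D. Another lipid droplet gene, AT2G47780, was below the brightest dim control with water (9.59) and read 40.1 and 68.3 with 2,4-D, at least 3.78-fold higher. The third, AT3G05500, was bright and did not pass (238 against 238 and 306, limma adjusted p = 0.575). AT3G27270 (19.9 against 56.6 and 77.0) and AT1G21790 (50.6 against 128 and 150) encode membrane proteins of the TRAM, LAG1 and CLN8 class, a domain shared with ceramide synthases.

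**Figure D4:**
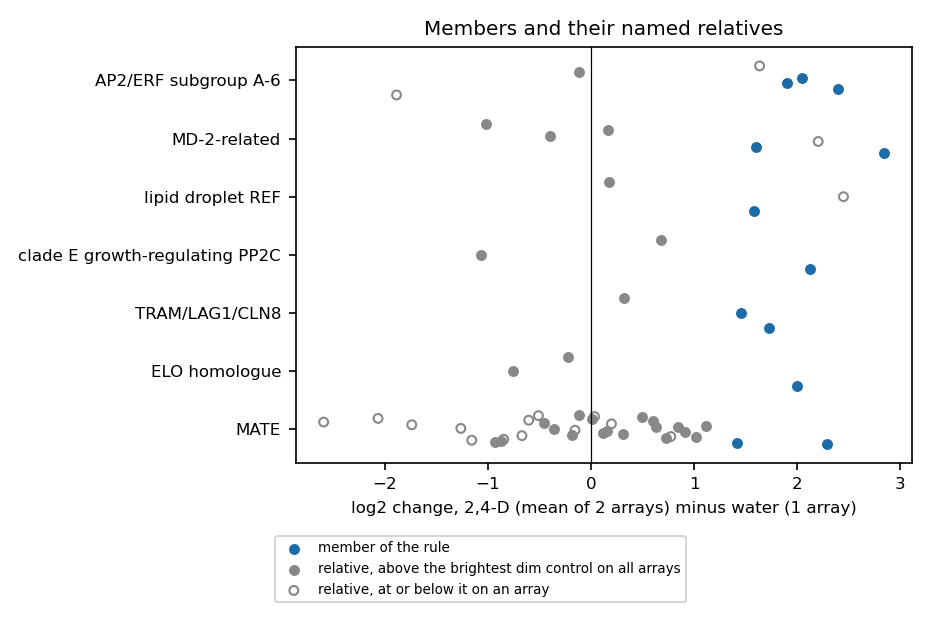
Log2 change, mean of the 2 arrays of 2,4-D minus the water array, for members (blue) and other named probe sets of the same family (grey), in 7 families. Open circles had a signal at or below the brightest dim control on at least 1 array, so their change is uncertain. In the AP2/ERF subgroup the members at 1.90 to 2.39 stand beside a relative at -0.12, and the filled MATE relatives spread from -0.93 to 1.11 beside members at 1.42 and 2.29.

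The 8 metabolic enzymes had mean ratios of 2.63 to 3.89. AT1G06000, a flavonol rhamnosyltransferase that is listed by locus tag and was therefore not left out with the UGT symbols, had 79.7 with water and 239 and 260 with 2,4-D. AT5G07860, an acyltransferase of the BAHD family, had 84.9 with water and 400 and 255 with 2,4-D. AT5G37990, a methyltransferase of the SABATH family, which methylates small acids, had 58.6 with water and 214 and 243 with 2,4-D. SUFE2 (AT1G67810), which activates the cysteine desulfurase of iron-sulfur cluster assembly, had 18.6 against 59.0 and 77.9. The others lay close to the threshold, with mean ratios of 2.97 for the carboxylesterase-type hydrolase gene AT1G68620, 2.81 for AT3G15090, of the zinc-type alcohol dehydrogenases, 2.77 for the acid phosphatase family gene AT5G51260 and 2.63 for the hydrolase gene AT5G41900. The last of these was the smallest mean ratio of any named member.

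Of the 7 stress and defence proteins, SIS, AT3G28270 and AT3G28220 were the brightest after treatment. SIS (AT5G02020), named for a salt-induced serine-rich protein, had 99.1 with water and 436 and 506 with 2,4-D. AT3G28270, an At14a-like membrane protein, had 92.0 with water and 418 and 489 with 2,4-D. AT3G28220, with a MATH domain, had 89.2 with water and 345 and 440 with 2,4-D. These genes reached percentiles 91.5 to 94.4 of the treated arrays from percentiles 68.8 to 71.4 of the water array. AT1G20030, a thaumatin-like protein of the pathogenesis-related class, had 19.3 against 72.4 and 105, and AT2G43535, a small defensin-like protein, had 58.4 against 238 and 206. AT2G38640, related to the LURP1 defence protein, had 68.0 against 213 and 208, and pEARLI4 (AT2G20960), named as an aluminium-induced gene, had 67.4 against 172 and 213.

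The 17 members with no role stated had a median mean ratio of 3.64. After AT1G20070 the highest were ZCF37 (AT1G59590, with 15.9 for water, 90.3 and 85.4 for 2,4-D), AT4G12000 (49.1, 276 and 254) and AT3G28420 (14.8, 69.5 and 84.2). The water signals of ZCF37 and AT3G28420 lie just above the brightest dim control, so the size of their ratios is uncertain. With an offset of 16 before the ratio their log2 changes were 1.70 and 1.59, below the 1.96 of AT5G19875. AT5G19875 had 48.2 with water and 221 and 246 with 2,4-D. AT1G78070, for a protein with WD40 repeats, had 65.3 with water and 250 and 297 with 2,4-D, and AT1G21670 had 70.1 with water and 237 and 333 with 2,4-D. Mean ratios of 3 to 4 were seen for AT3G14750 (3.65), AT1G19020 (3.64), AT1G68500 (3.39), AT1G31130 (3.37) and AT1G54120 (3.08). The lowest were those of AT4G20880 (2.91), AT1G34630 (2.76), AT1G68220 (2.72), AT1G61260 (2.70) and AT5G44860 (2.65). AT1G61260 read 14.9 with water and 42.8 and 37.9 with 2,4-D, and was the only one of the 149 members that was not above the median of both treated arrays.

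The treated arrays gave close values for most members. The brighter treated signal was under 1.2 times the dimmer one for 93 of 149 members and at least 1.5 times for 17, with a median of 1.13. The rule asks both treated arrays to be high against the same water signal, so part of this closeness is built in. Of all 10201 probe sets of the same water range, 4647 were under 1.2 and 2361 at least 1.5, with a median of 1.23. These include many that stayed dim. Among the named members the smallest difference was that of AT1G31130 (241 and 240) and the largest that of AT3G05640. Replicate 2 was the brighter array for 84 members and replicate 1 for 65. Over all probe sets of the same water range, replicate 2 was brighter for 4774 and replicate 1 for 5427.

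Genes close to the threshold were much alike on either side of it. Just inside were AT4G19610, AT1G68220 and AT1G34630, whose lower ratio was 2.53. Just outside were AT5G46920 (24.3 with water, 60.6 and 94.5 with 2,4-D), AT1G49650 (14.7, 44.9 and 36.7) and AT4G19510 (14.6, 45.5 and 36.2), with lower ratios of 2.49, 2.49 and 2.47. The bounds on the water signal cut in the same way. LTI30, a dehydrin gene induced by cold, read 100.3 with water and 297 and 352 with 2,4-D and so fell just above the range.

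Of the members, 52.3% had no entry in the naming table, against 38.5% of all probe sets in the water range. The unlisted members had a median mean ratio of 3.73, the named ones 3.41, and 5 of the 7 members with a mean ratio of at least 10 were unlisted. The highest were probe set 259705_at, with 47.9 for water and 1032 and 848 for 2,4-D, and probe set 261766_at, with 17.4 for water and 313 and 316. Their mean ratios of 19.5 and 18.1 exceeded that of every named member, so the named genes give an incomplete view of the largest changes. Of the 7 members above 500 on both treated arrays, AT1G48100 was the only one with a name. The 3 members with several genes had mean ratios of 4.29, 2.87 and 2.62.

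By position, 25 of the 68 named members lay on chromosome 1, 8 on chromosome 2, 10 on chromosome 3, 7 on chromosome 4 and 18 on chromosome 5. Chromosome 1 thus held 36.8% of them against 25.8% of the 13367 probe sets with 1 nuclear gene. In the order of protein-coding genes of the RefSeq table (assembly TAIR10.1), 9 pairs of consecutive members were at most 15 genes apart. A background number of such pairs was not taken, so nothing is read from this count. The closest pairs were AT1G20030 and AT1G20070, and AT5G37990 and AT5G38030, each 4 genes apart, followed by AT3G28220 and AT3G28270, 5 genes apart. The genes right beside the members were read as well. Of 64 flanking genes with a named probe set, 4 were at least 2.5-fold higher on both treated arrays and 3 at least 2.5-fold lower, against 3.8% higher among all probe sets with 1 nuclear gene, and their median mean ratio was 0.934. The brightest of the higher ones was AT1G21680, beside AT1G21670, which read 112 with water and 632 and 552 with 2,4-D. Whether the probe sets of these neighbours share signal was not tested. The other 3 higher flanking genes were below the brightest dim control with water, and 2 of them were also at or below it on a treated array. Their ratios are therefore uncertain. Among the lower ones, AT5G19870 (22.4 with water, 7.93 and 8.30 with 2,4-D) and AT2G47050 (5.74, 1.14 and 1.60) were below the brightest dim control on both treated arrays. A background share of lower probe sets was not taken here. Of the 30 flanking genes within the members' own water range, 0 were at least 2.5-fold higher on both treated arrays, against 1.54% of all probe sets in that range. Such a gene would itself be a member unless left out by name, and the closest members were 4 genes apart. The 0 therefore repeats that spacing, and with only 30 genes nothing is read from it.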

How the data were processed

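The authors deposited linear intensities, 1 MAS5 signal a probe set, according to the submitters' processing notes. The algorithm merges the probes of a set and scales each array; its version, its scaling target and the genome build are not given in the sources. The file held 22810 probe sets, of which 64 were controls. Names came from a probe-to-gene table updated through RefSeq (assembly TAIR10.1, names and gene order only): 13513 probe sets had 1 gene, 503 several and 8730 none listed.

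Ratios to water were taken without further normalization. For the background and for relatives, log2 signals were fitted with limma 3.58.1 (R 4.3.3; lmFit and eBayes with an intensity trend, Benjamini-Hochberg adjustment, threshold 0.05) over the 13648 probe sets with a mean signal of at least 24.8, the 40th percentile. The fit has 1 residual degree of freedom, from the treated pair, and the lone water array is assumed to vary like them. P-values measure only the spread between these samples, which may be technical. Standard errors and p-values lean on that spread pooled over probe sets of like signal, and follow a gene's own arrays only in part. AT5G07860 had a log2 SD between its treated arrays of 0.459 and an SE of 0.201, and AT1G31130 had 0.00345 and 0.21. The number of arrays limits precision. Figures were drawn with matplotlib 3.10.9.

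The members, role groups, families and lists were chosen with earlier results of these data known, and the relatives after the members' values were seen. Named were all members with a symbol, the 12 locus-only members with the highest mean ratio, the 3 on either side of the fold threshold, and called genes of the prefix families, at most 4 each. The remaining named members were added after their values were seen. Alternatives changed the scaling, offset, filter, trend, thresholds and arrays. Promoter motifs were not analysed here.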

Additional observations from a re-analysis of the deposited data

How the results depend on the processing

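With 149 members by the rule, scaling the arrays to 1 median gave 198, 147 of them shared, quantile normalization gave 175 with 140 shared, and a water signal of at least 20 left 122. An offset of 16 before the ratio left 79, a 2-fold threshold gave 319 and a 3-fold threshold 89, as looser and stricter rules must. With 1 treated array left out, 208 to 235 probe sets passed on the other. The median log2 change over the members was 1.84, and became 1.96 after scaling to 1 median, 1.95 after quantile normalization and 1.47 with the offset, with 1.78 to 1.82 when a treated array was left out. That scaling also shifted the median log2 change over all probe sets tested, from -0.04 to 0.07, and the higher share of all calls, from 50.7% to 67.1%. The calls over all probe sets, 1472 higher and 1434 lower, became 964 and 710 without a filter and 834 and 839 without the intensity trend, and the cause was not tested. Fits without a treated array were not run, since no residual degree of freedom is left. The motif alternatives were not run. No paired analysis was possible because the groups share only 1 replicate number. The limits are the single water array, dim signals near 14 and the 78 unlisted members.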

Other observations

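Some of the probe sets that met the signal criteria were left out of the members by name, 8 in all. PUB19 had the largest mean ratio of the whole water range, 45.8, above that of every member. It read 19.1 with water and 712 and 1072 with 2,4-D. COR15A, UGT73B5, WRKY53 and EXPA16 were left out as well, with mean ratios of 8.84, 3.50, 3.49 and 3.26. Another of the 8 reports on the flavonoid and xenobiotic glucosyltransferase genes UGT73B2 and UGT73B3 together, and read 77.7 with water and 929 and 841 with 2,4-D. COR15B, the neighbour and close copy of the cold-regulated gene COR15A, read 29.8 with water and 113 and 174 with 2,4-D. The plastid gene psbB, for a core antenna protein of photosystem II, read 46.4 with water and 177 and 176 with 2,4-D.

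Among 16 families defined by the first letters of the symbol, which hold 0 of the members, 65 probe sets were named and 32 tested, of which limma called 6 higher and 6 lower, against 10.8% higher and 10.5% lower of all probe sets tested. Letters alone had brought in 5 of the called genes that belong to none of these families: ACS is an acetyl-CoA synthetase, CBL a cystathionine beta-lyase, CYP71 a cyclophilin and PIP a proline iminopeptidase, and SWEETIE is not a SWEET sugar carrier. Without them, 27 tested probe sets were left, of which 3 were higher, namely MYBC1 (log2 change 1.00 ± 0.31), SWEET2 (0.58 ± 0.21) and bHLH115 (0.58 ± 0.19), and 4 were lower, namely PRXR1 (-0.73 ± 0.27), CML42 (-0.73 ± 0.25), SWEET17 (-0.63 ± 0.20) and SWEET1 (-0.58 ± 0.21). Most genes of these families are listed by locus tag only, so the families are covered in small part. ERF/DREB, zinc finger, ABC transporter, PP2C, auxin transport and MAP kinase symbols were absent from the single-gene names. Members listed by locus tag could not match by letters either, among them the AP2/ERF, PP2C and peroxidase genes described above. The count of 0 members therefore holds for symbols only.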
